A study of Mus musculus with 24 samples.

Results

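A set of 7 long noncoding RNA genes known from neurons and from the nucleus, Meg3, Rian, Mirg, Malat1, Neat1, Miat and Snhg11, was followed in the hippocampus after deletion of Tsc1. They were chosen by name, as noncoding genes that are abundant when total RNA is sequenced without a poly(A) selection, and make up 7 of the 55385 genes that were counted. All 7 passed the filter on low counts in every comparison.

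Meg3, Rian and Mirg are transcribed in the same direction from the maternal copy of the imprinted Dlk1-Dio3 locus, where Rian hosts small nucleolar RNAs and Mirg hosts microRNAs, and they are well known from neurons. Malat1 gathers in nuclear speckles, which store splicing factors, and Neat1 is the scaffold RNA around which paraspeckles assemble. Miat, also called Gomafu, forms its own nuclear domains in neurons and binds splicing factors, and Snhg11 is a neuronal host gene of small nucleolar RNAs.

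RNA was measured in 24 adult mice of both sexes, in 6 groups of 4. All mice were Tsc1 fl/fl and all received tamoxifen. The controls (Tsc1-Cre-) lacked the Camk2a-CreERT2 transgene, kept both Tsc1 alleles and were taken on day 8. Tsc1-Cre+ mice carried the transgene and were taken on day 4, 6, 8 or 13 after the start of tamoxifen. The Rap 4 mice were Tsc1-Cre+, received 10 mg/kg rapamycin, an inhibitor of mTOR complex 1, from day 4, and were taken on day 13. The Camk2a promoter limits the deletion to CAMK2A-expressing neurons, whereas the libraries held RNA of the whole hippocampus with its interneurons, glia and vessels. A lower level can therefore stem from fewer cells of a type or from less RNA per cell, and these cannot be told apart. Since controls were taken on day 8, a difference on another day also holds the difference in time. The number series in the file names was shared with the controls on day 8 and in no other group, so time point and series cannot be told apart in the other groups.

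Between 28208561 and 126435936 reads per mouse were assigned to genes, and day 13 had the widest range, from 38423852 to 126435936. Tsc1 itself ranged from 102.6 to 109.5 CPM (counts scaled to library size with the TMM factors of edgeR) in controls and from 57.4 to 81.7 CPM in the 20 Tsc1-Cre+ mice, with no overlap. Among the marker lists, the summed level of 5 choroid plexus genes ranged from 37.7 to 1644 CPM and varied as widely within groups as between them, and that of 7 microglia genes was 147 to 170 CPM in Rap 4 mice and 202 to 240 CPM in controls. The sums of 5 endothelial genes, with 110 to 122 CPM in Rap 4 mice and 138 to 176 CPM in controls, and of 8 general neuron genes, with 4615 to 4862 CPM in Rap 4 mice, 4870 to 5570 CPM in controls and 5301 to 5834 CPM on day 13, did not overlap between Rap 4 mice and controls either. On day 6 the sums of 7 microglia genes (177 to 187 CPM) and of 7 astrocyte genes (4914 to 5286 CPM) were below all controls too. The astrocyte sum was 5403 to 5908 CPM in controls. No marker of any list was at 0 in all mice. The part of other cells in the results below was not tested.

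The members covered a wide range of levels. Meg3 (ENSMUSG00000021268.17, chr12:109541001-109571726, plus strand), Rian (ENSMUSG00000097451.11, chr12:109603940-109661716, plus strand) and Mirg (ENSMUSG00000097391.8, chr12:109729764-109749460, plus strand) lie one after the other, with gaps of 32213 and 68047 bp. Malat1 (ENSMUSG00000092341.3, chr19:5795690-5802672, minus strand) and Neat1 (ENSMUSG00000092274.3, chr19:5824708-5845478, minus strand) are neighbours annotated without introns, 22035 bp apart. Miat (ENSMUSG00000097767.8) lies at chr5:112213228-112229395 on the minus strand, and Snhg11 (ENSMUSG00000044349.16) at chr2:158375638-158386145 on the plus strand. Coordinates are those of GENCODE M21 on GRCm38, which labels Snhg11 a protein-coding gene while RefSeq lists it as noncoding. Per kb of exon, Malat1 had 2871 CPM in controls and ranked 6 of 27048 genes. Meg3 and Snhg11 followed with 147.0 and 146.9 CPM per kb, then Miat with 57.8, Rian with 47.9, Mirg with 9.94 and Neat1 with 7.95 CPM per kb. The 7 genes together took between 2.57% and 2.695% of all counts in controls, between 2.69% and 3.38% on day 13, and between 2.64% and 2.86% under rapamycin.

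The promoters of the 4 genes outside Rian, Mirg and Neat1 are shown because these genes moved most steadily in what follows, Malat1 upward and the others downward. Each is a RefSeq window on GRCm38.p6 of 250 bases before and 50 bases after the start site, 5′ to 3′ on the gene's own strand. Meg3 is at chr12:109540746-109541045 (plus), Malat1 at chr19:5802623-5802922 (minus), Miat at chr5:112228899-112229198 (minus) and Snhg11 at chr2:158375463-158375762 (plus). Capitals mark matches to the motifs searched.
Meg3: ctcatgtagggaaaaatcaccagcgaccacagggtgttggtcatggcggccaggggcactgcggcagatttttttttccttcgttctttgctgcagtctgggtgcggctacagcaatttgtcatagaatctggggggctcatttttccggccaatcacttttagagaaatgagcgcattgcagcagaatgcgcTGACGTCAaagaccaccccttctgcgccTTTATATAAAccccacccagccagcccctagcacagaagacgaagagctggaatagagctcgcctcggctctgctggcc
Malat1: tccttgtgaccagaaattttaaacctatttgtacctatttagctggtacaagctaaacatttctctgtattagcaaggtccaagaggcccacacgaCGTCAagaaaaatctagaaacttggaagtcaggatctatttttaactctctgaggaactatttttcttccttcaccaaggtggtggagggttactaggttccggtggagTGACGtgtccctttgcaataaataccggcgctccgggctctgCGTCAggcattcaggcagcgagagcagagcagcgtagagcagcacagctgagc
Miat: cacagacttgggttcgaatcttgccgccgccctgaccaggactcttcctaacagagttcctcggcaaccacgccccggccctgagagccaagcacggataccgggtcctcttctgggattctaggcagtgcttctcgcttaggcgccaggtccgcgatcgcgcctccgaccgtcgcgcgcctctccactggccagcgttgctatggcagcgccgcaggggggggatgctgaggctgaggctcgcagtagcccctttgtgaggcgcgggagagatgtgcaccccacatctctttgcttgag
Snhg11: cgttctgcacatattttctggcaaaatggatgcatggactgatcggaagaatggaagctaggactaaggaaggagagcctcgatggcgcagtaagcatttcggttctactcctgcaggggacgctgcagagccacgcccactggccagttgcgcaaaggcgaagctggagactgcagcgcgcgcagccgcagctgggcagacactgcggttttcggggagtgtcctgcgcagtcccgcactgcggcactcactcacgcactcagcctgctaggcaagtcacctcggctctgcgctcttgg

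The motifs, read on both strands, were the cyclic AMP response element TGACGTCA, its core TGACG, which lies within it, the AP-1 motif TGANTCA, the ATF4 and C/EBP motif TGATGNAA, the E-box CACGTG, the TATA box TATAAA and the NRF1 motif GCGCATGCG. The Meg3 window held the full TGACGTCA, 57 bases before the start, and 2 overlapping matches to TATAAA, 29 and 25 bases before it. Of the 32851 promoter windows in the RefSeq table, 1.79% held TGACGTCA and 13.6% held TATAAA. The Malat1 window held TGACG 3 times and no full element, and 20.8% of all windows held TGACG at least once. No match to any of the motifs was found in the windows of Miat and Snhg11, which were rich in CpG, with 25 and 21 CpG dinucleotides against a median of 7 over all windows. TGANTCA was found in 7.81%, TGATGNAA in 3.97%, CACGTG in 7.15% and GCGCATGCG in 1.75% of all windows and in none of the windows of the 6 genes with an entry in the table, which holds none for Neat1. Rian, Mirg and the second start site of Meg3 held no match either. A match or its lack describes these letters only.

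**Figure D1:**
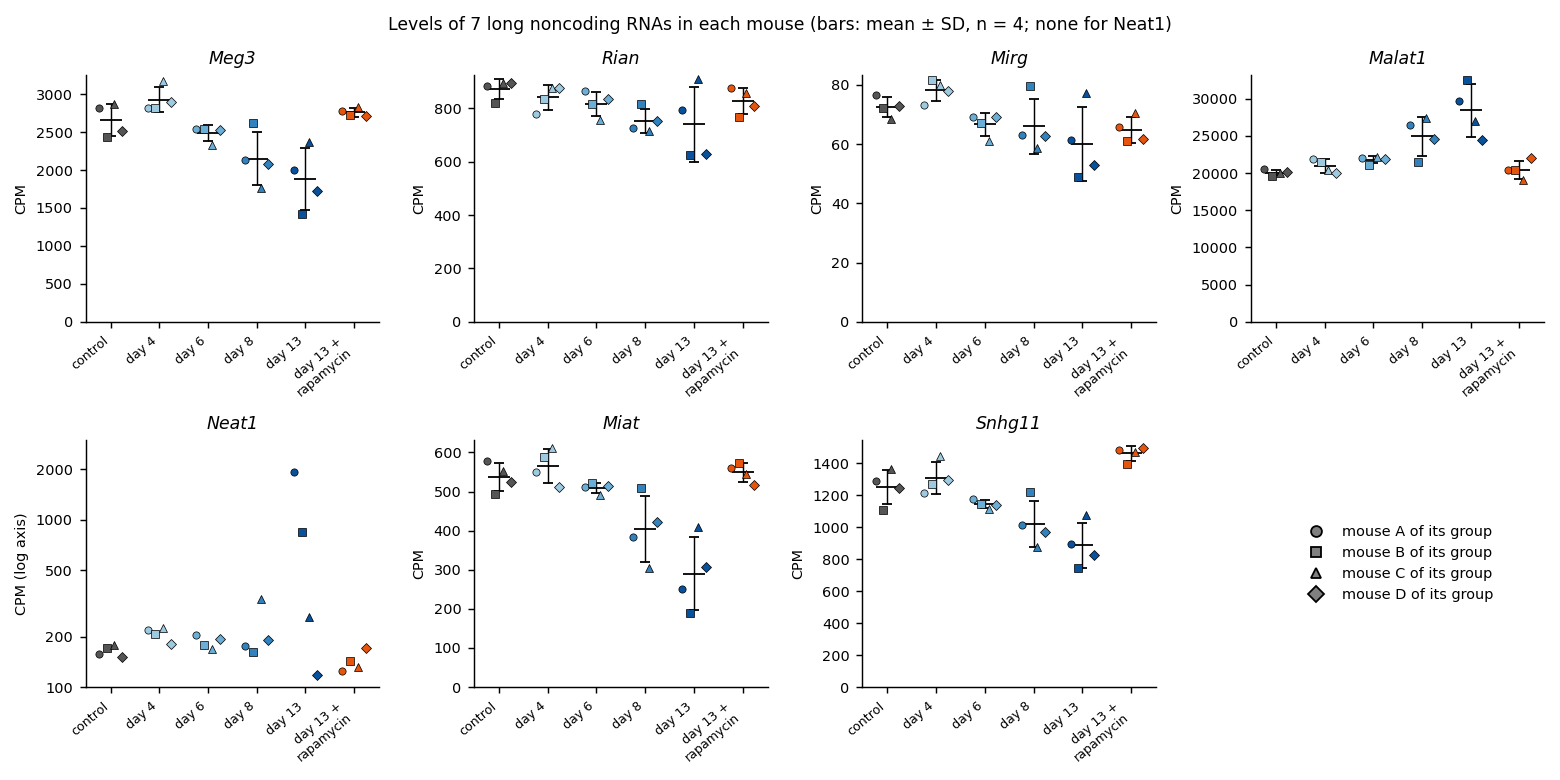
CPM (y axis, from 0, and on a log axis for Neat1) of the 7 RNAs in each of 24 mice (points, shape by mouse letter) in 6 groups (x axis), with mean and SD bars (n = 4) except for Neat1. On day 13 Meg3, Miat and Snhg11 sit below all controls and Malat1 above all controls, whereas Neat1 spreads from 117 to 1938 CPM.

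Changes were few before day 8 and most frequent on day 13. A member was counted as changed at an adjusted p under 0.05 in the edgeR quasi-likelihood test, which was fitted to all genes and adjusted over all of them, and as DE when the absolute log2 fold change was also over 0.5. On day 4, 1 of the 7 members was higher (Neat1) and none lower, where 2.61% of all genes tested were higher, 1.56% lower and 0.680% DE. On day 6 no member passed by edgeR, where 6.24% of genes were higher, 3.81% lower and 1.32% DE, although 4 members had an unadjusted p under 0.05 and DESeq2 called 1. On day 8, 1 was higher (Malat1) and 1 lower (Rian), with 8.41% of genes higher, 4.87% lower and 3.99% DE. On day 13, 2 were higher (Malat1, Neat1) and 3 lower (Meg3, Miat, Snhg11), and 4 of these 5 were DE, with 15.6% of genes higher, 11.3% lower and 16.5% DE. In Rap 4 mice no member differed from controls by edgeR, where 1.26% of genes were higher, 2.31% lower and 1.41% DE, while 3 members had an unadjusted p under 0.05 and DESeq2 called 1. Against untreated day 13 mice, rapamycin mice had 3 members higher (Meg3, Miat, Snhg11) and 2 lower (Malat1, Neat1), and 4 of these 5 were DE, with 13.1% of genes higher, 17.7% lower and 21.1% DE. The comparisons share the control or the day 13 mice and are not independent. In an F test across the 6 groups, 6 of the 7 members passed, all but Rian (adjusted p = 0.146), as did 41.9% of all genes tested.

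**Figure D2:**
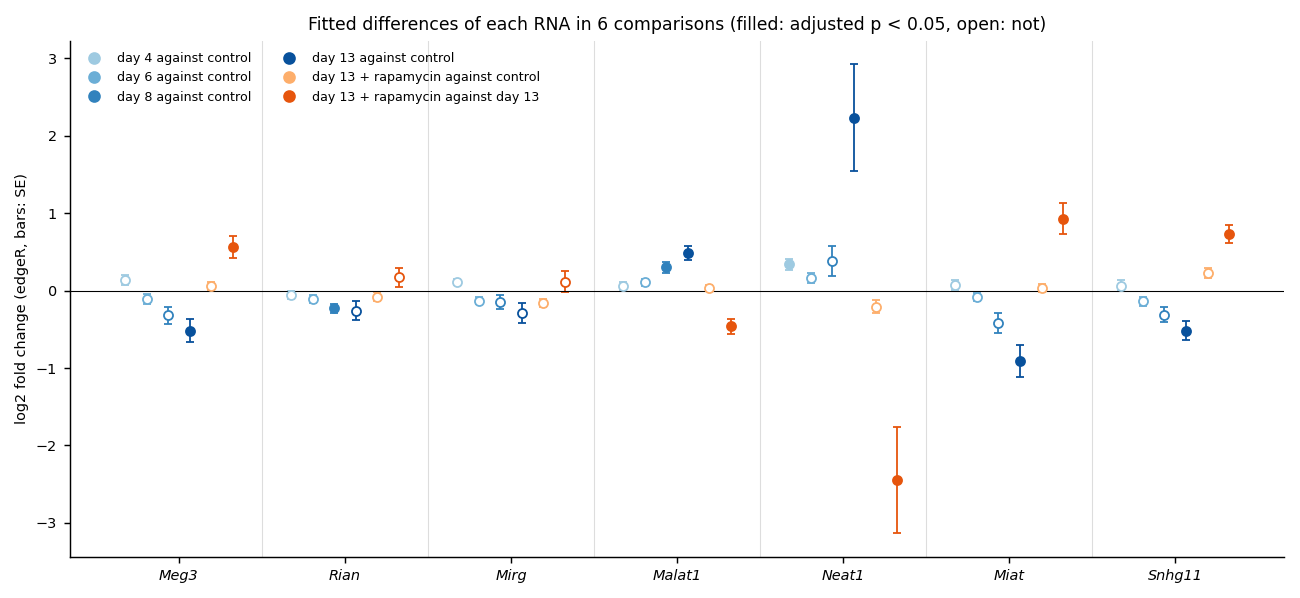
Log2 fold change with SE (y axis, edgeR) of each RNA (x axis) in 6 comparisons (colours), filled where the adjusted p was under 0.05 and open where it was not. Meg3, Miat and Snhg11 drop on day 13 to -0.52, -0.91 and -0.52 and sit near 0 or above in rapamycin mice against controls.

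Meg3, the most abundant of the 3 imprinted RNAs and a binding partner of chromatin regulators, fell by day 13. Controls had 2812, 2438, 2865 and 2518 CPM in mice A to D. Day 8 mice had 2130, 2618, 1769 and 2075 CPM, and day 13 mice had 2007, 1422, 2373 and 1727 CPM. All 4 day 13 mice were below all controls, while mouse B of day 8 lay among the controls. The group mean was 2659 ± 212 CPM in controls and 1882 ± 405 CPM on day 13 (SD, n = 4), and the fitted log2 fold change was -0.52 (SE 0.148, adjusted p = 0.0297). The adjusted p rose to between 0.0502 and 0.0850 when control mouse A, B, C or D or day 13 mouse D was left out. On day 8 the log2 fold change was -0.32 (adjusted p = 0.0705) and the call was not made, although DESeq2 made it. Rap 4 mice had 2781, 2720, 2837 and 2712 CPM, the tightest group of all 6, and were all above the day 13 mice. Their log2 fold change was 0.56 against day 13 (SE 0.141, adjusted p = 0.0146) and 0.06 against controls (adjusted p = 0.651). Day 4 mice ranged from 2821 to 3171 CPM and day 6 mice from 2327 to 2544 CPM, and both overlapped the controls.

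Rian, the host of a large cluster of small nucleolar RNAs, was lower on day 8. Controls had 884, 818, 895 and 896 CPM, and day 8 mice had 728, 815, 715 and 753 CPM. The 2 ranges met without overlap, with day 8 mouse B just below control mouse B. The log2 fold change was -0.23 (SE 0.0589, adjusted p = 0.0278). The exons of Rian are poor in G and C, with 35.8% in its longest transcript, and with an offset for GC content the log2 fold change was -0.06 (adjusted p = 0.607). The call was also lost when control mouse A, C or D or day 8 mouse A or C was left out (adjusted p between 0.0558 and 0.0946). On day 13 mouse C, with 911 CPM, was above all controls, mouse A, with 795 CPM, was below them, and mice B and D, with 625 and 627 CPM, were farther below. The log2 fold change was -0.26 (adjusted p = 0.148), 0.04 with the GC offset and -0.35 (adjusted p = 0.0319) without mouse C. Rap 4 mice ranged from 767 to 877 CPM (log2 fold change 0.17 against day 13, adjusted p = 0.329).

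Mirg, which hosts a cluster of microRNA genes, was by far the least abundant of the 3 RNAs and passed in no comparison with the controls. Controls had 76.5, 72.1, 68.4 and 73.0 CPM, day 13 mice 61.5, 48.7, 77.2 and 53.0 CPM, and Rap 4 mice 65.7, 61.1, 70.5 and 61.7 CPM. Day 13 mouse C had more Mirg than any control, and the other 3 had less than every control. The log2 fold change on day 13 was -0.29 (SE 0.134, adjusted p = 0.134), and without mouse C it was -0.41 (adjusted p = 0.0132). In the F test across groups Mirg passed narrowly (adjusted p = 0.0497).

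The proportions of the 3 RNAs of the locus differed between groups. In controls there were 31.3 to 35.6 Rian reads per 100 Meg3 reads, on day 13 there were 36.3 to 43.9, and under rapamycin 28.2 to 31.5. The day 13 mice lay above both other groups without overlap, and the ratio of the Rap 4 mice fell back to or below the control range. Mirg gave the same picture for these 3 groups, with 2.39 to 2.96 reads per 100 Meg3 reads in controls, 3.06 to 3.43 on day 13 and 2.25 to 2.48 under rapamycin. Shifts were also seen on earlier days. Rian per 100 Meg3 reads was 27.6 to 30.2 on day 4, below every control. On day 8 it was 31.1 to 40.4 and overlapped controls and day 13. Mirg per 100 Meg3 reads was 2.52 to 2.89 on day 4, within the control range. On day 8 it was 2.965 to 3.31, just above every control. On day 6 both ratios lay within the control range. The differences on these earlier days were not tested. Each of the 4 differences of day 13 from controls and from Rap 4 mice had an exact permutation p of 0.0286, two-sided over 70 arrangements. This is the smallest that 4 against 4 mice can give, and the adjusted p was 0.0476 over the 10 ratio tests. The 10 include the tests of Miat to Malat1, whose outcome followed from the levels and which had the same p. The adjusted p depends on counting them and would be higher without them. The ratio of Mirg to Rian did not separate day 13 from controls or Rap 4 mice. There were 7.64 to 8.82 Mirg reads per 100 Rian reads in controls and 7.74 to 8.48 on day 13 (exact permutation p = 0.543). Rap 4 mice had 7.49 to 8.22 (exact permutation p = 0.286 against day 13). On day 4 this ratio was 8.90 to 9.77, above every control, a difference that was not tested. These ratios were chosen after the levels were seen, and they do not depend on scaling between mice. With the offset for GC content the fitted log2 fold changes of Meg3, Rian and Mirg on day 13 were -0.50, 0.04 and -0.31.

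**Figure D3:**
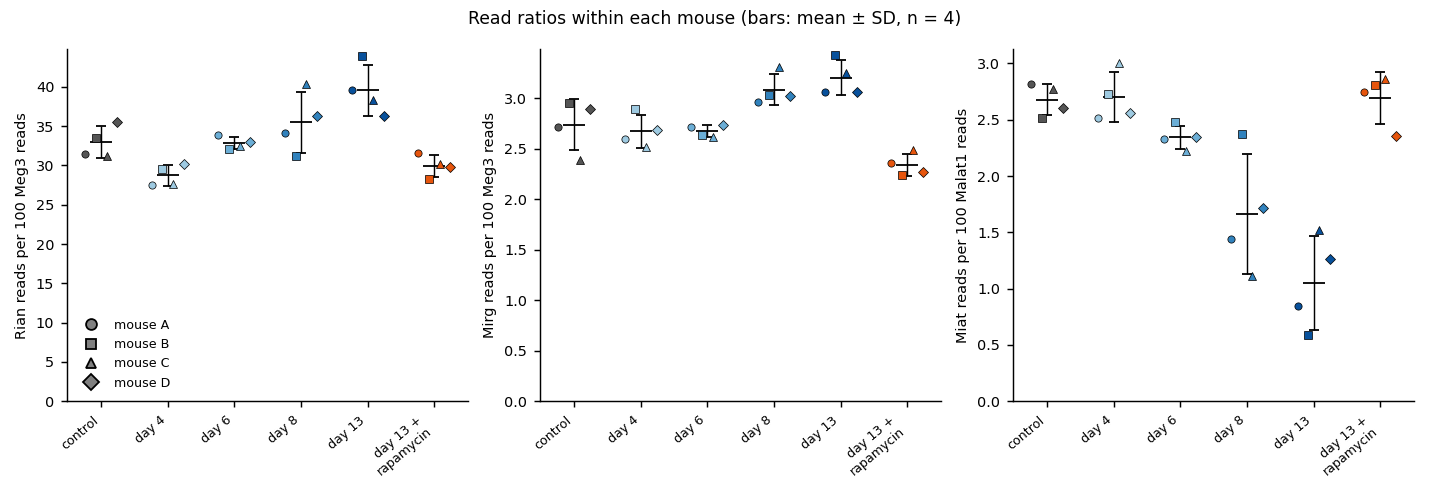
Reads of one RNA per 100 reads of another (y axes, from 0) in each of 24 mice (points) in 6 groups (x axis), with mean and SD bars (n = 4). Rian and Mirg per Meg3 are highest on day 13, and Miat per 100 Malat1 reads drops from 2.68 in controls to 1.05 on day 13.

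Around the 3 RNAs, few genes of the locus passed the test. Of the 57 other genes tested from Dlk1 to Dio3, 6 were lower and none higher on day 13, where 11.3% of all genes were lower and 15.6% higher. Of the same 57 genes, 52 (91.2%) had a negative log2 fold change, with a median of -0.37, where 53.4% of all genes did and the median was -0.04. Most of these genes are microRNA or small nucleolar RNA genes with few reads, several lie inside Rian or Mirg and share its transcript, and these libraries were not designed to capture mature microRNAs. They are therefore not independent measurements, and their levels may stand for longer transcripts that cross them, which was not tested. On day 8, 50 of 57 were negative (median -0.27) and none passed the test. Under rapamycin 13 of 56 were negative against day 13 (median 0.30), and 3 were higher and none lower, where 13.1% of all genes were higher and 17.7% lower. The 57 genes were looked up after the values of the members were seen.

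Of the 3 protein-coding genes of the locus that are expressed from the paternal copy, Dio3, the enzyme that inactivates thyroid hormone, fell by day 13. It had 0.252 to 0.624 CPM in controls and at most 0.0568 CPM on day 13, where no mouse had more than 6 reads, and the groups did not overlap (adjusted p = 0.00425). Rap 4 mice had 0.244 to 0.466 CPM of Dio3, all above day 13 (adjusted p = 0.00470). Rtl1, a retrotransposon-derived gene antisense to microRNAs of the locus, stayed between 32.4 and 49.4 CPM on day 13 against 41.1 to 47.2 CPM in controls (log2 fold change -0.11, adjusted p = 0.547). On day 4 all 4 mice had more Rtl1 than every control, with 51.0 to 56.1 CPM (log2 fold change 0.26, adjusted p = 0.0163). Dlk1, a Notch-like ligand, had a log2 fold change of -0.44 (adjusted p = 0.335) at under 1 CPM. Of the flanking genes outside the imprinted block, Wars, the cytosolic tryptophanyl-tRNA synthetase, rose (log2 fold change 0.65, adjusted p = 0.00135) and Ppp2r5c, a phosphatase subunit, rose (0.34, adjusted p = 0.0119). Begain (-0.05, adjusted p = 0.722) and Wdr25 (-0.01, adjusted p = 0.960) did not pass, and Dio3os was too low to be tested.

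Among the microRNA genes inside Mirg, Mir154 (chr12:109738433-109738498) was the one that passed the test on day 13. Its locus had 0.690 to 0.954 CPM in controls, 0.299 to 0.455 CPM on day 13 and 0.466 to 0.972 CPM in Rap 4 mice, so that day 13 lay below both other groups. The log2 fold change was -1.07 on day 13 (SE 0.238, adjusted p = 0.0109) and 0.97 under rapamycin against day 13 (SE 0.302, adjusted p = 0.0345), from 16 to 35 reads per mouse on day 13. Mir541, the microRNA gene inside Mirg with the most reads, had a log2 fold change of -0.30 on day 13 (adjusted p = 0.333). Their mature sequences, from RefSeq on GRCm38.p6, are shown because they identify what both loci encode, with the seed (bases 2 to 8) in capitals. No seed was shared among them.
miR-154-5p: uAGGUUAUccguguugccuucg
miR-154-3p: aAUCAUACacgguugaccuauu
miR-541-5p: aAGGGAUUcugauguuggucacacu
miR-541-3p: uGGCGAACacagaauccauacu

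**Figure D4:**
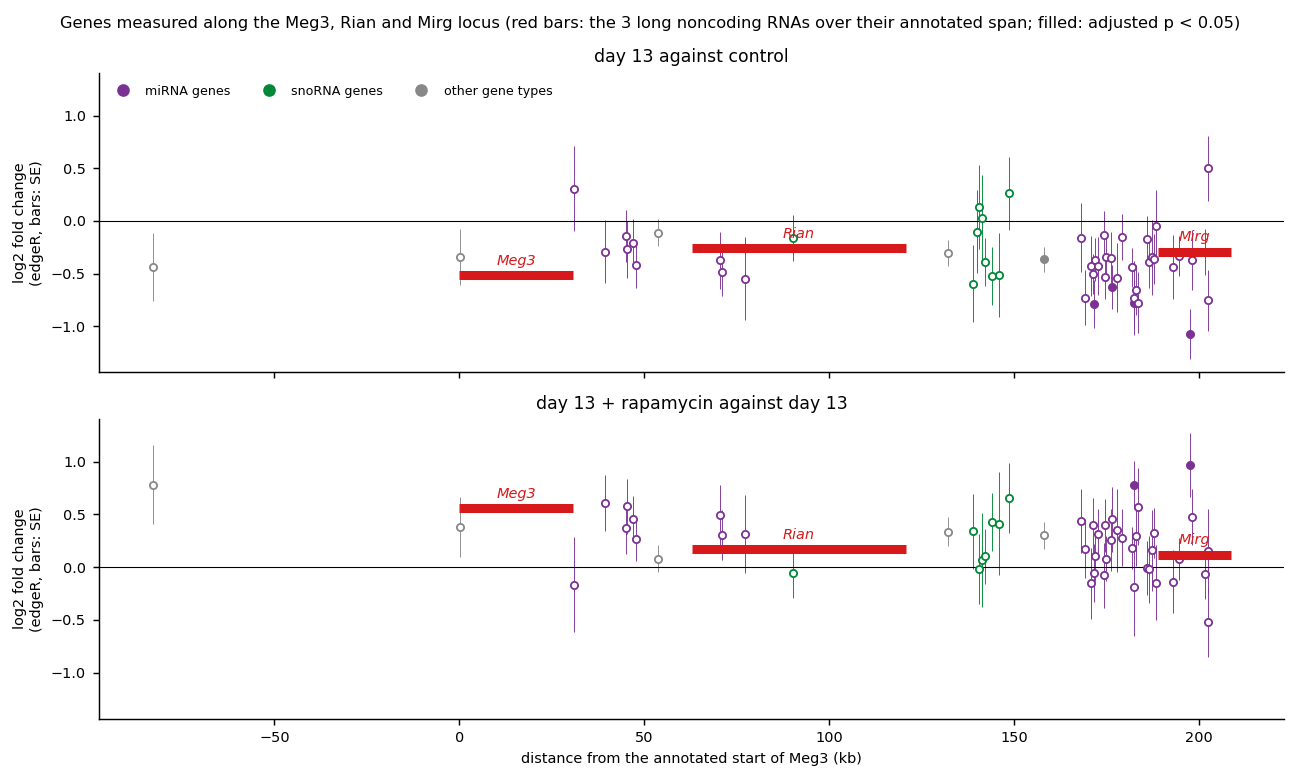
Log2 fold change with SE (y axis, edgeR) of genes along the locus against distance from the annotated start of Meg3 (x axis, kb), for day 13 against control (top) and rapamycin against day 13 (bottom). Red bars span Meg3, Rian and Mirg, points are other genes, filled at an adjusted p under 0.05. Most points lie below 0 on day 13 and above 0 under rapamycin, and genes farther to the right, Dio3 among them, are not drawn.

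Malat1 rose from day 8 on. Controls had 20486, 19620, 19970 and 20111 CPM, with an SD of 358 CPM around a mean of 20047. Day 8 mice had 26504, 21470, 27385 and 24552 CPM, and day 13 mice had 29735, 32573, 26972 and 24428 CPM. Every mouse of day 8 and day 13 was above every control. The log2 fold change was 0.30 on day 8 (SE 0.0722, adjusted p = 0.0199) and 0.48 on day 13 (SE 0.0882, adjusted p = 0.00470). The day 8 call was lost when control mouse B, C or D or day 8 mouse A was left out (adjusted p between 0.0597 and 0.0737), whereas the day 13 call held in all 8 fits without 1 mouse. Day 6 mice, with 22026, 21066, 22110 and 21892 CPM, were also all above the controls, by a log2 fold change of 0.11 that did not pass with edgeR (adjusted p = 0.172) and did with DESeq2 (adjusted p = 0.00241). Rap 4 mice had 20437, 20390, 19051 and 22001 CPM, all below the day 13 mice, with a log2 fold change of -0.46 against day 13 (SE 0.0991, adjusted p = 0.00731) and 0.03 against controls (adjusted p = 0.762). Malat1 had more reads than any other gene in 1 mouse of day 8 and 2 mice of day 13, and in none of the other groups.

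Neat1 differed most between mice of the same group. Controls had 158, 172, 178 and 152 CPM. On day 13 mouse A had 1938, mouse B 843, mouse C 263 and mouse D 117 CPM, so that mouse D was below every control and mouse A had 16.5 times as much as mouse D. The mean of the 4 was 4.79 times that of the controls, and the log2 fold change was 2.23 (SE 0.691, adjusted p = 0.0390). Without day 13 mouse A the log2 fold change was 1.28 (adjusted p = 0.104), and without mouse B it was 2.21 (adjusted p = 0.0691). The call was also lost without any 1 of the controls (adjusted p between 0.0876 and 0.0990), and with the level of Xist, which differs between the sexes, as a covariate (0.99, adjusted p = 0.265). It held without mouse C or D. The day 13 mice with the most Neat1, A and B, also had the deepest libraries, with 69971957 and 126435936 counts. With all libraries thinned to the smallest the log2 fold change was 2.24. Mice A and B of day 13 also shared a number series in their file names, which neither C nor D had. The split of A and B from C and D therefore cannot be told apart from the series, here or for other genes. Rap 4 mice had 125, 144, 131 and 171 CPM, within the range of the day 13 mice, above mouse D, and overlapping the controls. Their log2 fold change was -2.45 against day 13 (SE 0.684, adjusted p = 0.0221) and -1.51 (adjusted p = 0.0537) without day 13 mouse A, and the call was lost as well without any 1 of the Rap 4 mice (adjusted p between 0.0575 and 0.0631).

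Neat1 was also the one member that passed on day 4. The 4 mice had 220, 209, 225 and 182 CPM, all above the controls, with a log2 fold change of 0.34 (SE 0.0674, adjusted p = 0.0169). The call was lost without control mouse D or without day 4 mouse A, B or C (adjusted p between 0.0512 and 0.0609), in the fit of all 24 mice (adjusted p = 0.892) and with the Xist covariate (adjusted p = 0.0957). Day 6 mice ranged from 169 to 203 CPM and overlapped the controls. On day 8 mouse C had 337 CPM, while mice A, B and D had 175, 163 and 192 CPM, and the log2 fold change of 0.38 did not pass (adjusted p = 0.222). For Neat1 and Malat1, neighbours on the chromosome, there were 6.52, 2.59, 0.974 and 0.481 Neat1 reads per 100 Malat1 reads in day 13 mice A to D and 0.758 to 0.892 in controls, and these ranges overlapped (exact permutation p = 0.314, adjusted p = 0.349).

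Transcripts of genes for paraspeckle and speckle proteins moved little and in both directions. On day 13, 4 of 18 genes for paraspeckle proteins were higher and 2 lower, where 15.6% of all genes were higher and 11.3% lower. Their median log2 fold change was -0.04, equal to that of all genes. Taf15 (0.56, adjusted p = 0.0270) and Dazap1 (0.47, adjusted p = 0.00297), both RNA-binding proteins, rose. Hnrnpr, an hnRNP, fell (-0.41, adjusted p = 0.00191). Of 18 genes for nuclear speckle proteins, 1 was higher, Rnps1 of the exon junction complex (0.39, adjusted p = 0.0115), and 1 lower, Srrm1, a splicing coactivator (-0.23). The remaining 16 did not pass, and the median was -0.02.

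Miat had the steepest fall of the 7. Controls had 577, 494, 554 and 525 CPM, and day 8 mice had 383, 509, 305 and 422 CPM. Day 13 mice had 250, 190, 410 and 308 CPM. Day 8 mouse B stayed among the controls and the other 3 were below all of them, and on day 13 all 4 mice were below. The fitted level was 53.3% of the control level on day 13, a log2 fold change of -0.91 (SE 0.202, adjusted p = 0.0109), and the call held in all 8 fits without 1 mouse, from -1.10 to -0.74. On day 8 the log2 fold change was -0.42 (adjusted p = 0.0514), just short of the threshold, and it passed in 5 of 10 alternative fits. Rap 4 mice had 561, 573, 545 and 518 CPM, all above the day 13 mice and within the range of the controls, with a log2 fold change of 0.93 against day 13 (SE 0.198, adjusted p = 0.00708) and 0.03 against controls (adjusted p = 0.819). Days 4 and 6 overlapped the controls, at 512 to 611 CPM and 492 to 522 CPM.

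The ratio of Miat to Malat1 joined both changes. There were 2.52 to 2.82 Miat reads per 100 Malat1 reads in controls, 1.11 to 2.37 on day 8, 0.583 to 1.52 on day 13 and 2.35 to 2.86 under rapamycin. Day 13 lay below both controls and Rap 4 mice, which followed from the levels of the 2 RNAs, since each already separated these groups, and is no further evidence. The 3 splicing factors listed for their binding to Miat, Qk, Sf1 and Celf3, passed in neither direction on day 8 or day 13, with a median log2 fold change of -0.24 on day 13. Gm26953, which overlaps Miat on the opposite strand, had 1.97 to 3.01 CPM in controls and 0.904 to 1.90 CPM on day 13 (log2 fold change -0.76, adjusted p = 0.0494). The libraries were stranded but the strand setting of the counting was not stated, so reads of Gm26953 and Miat cannot be kept apart with certainty, although Gm26953 had at most 183 reads in a mouse.

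Snhg11 fell on day 13 and was the member with the widest gap between rapamycin and untreated mice in units of its error. Controls had 1291, 1106, 1363 and 1248 CPM, day 8 mice 1014, 1219, 876 and 968 CPM, and day 13 mice 898, 744, 1074 and 830 CPM. The day 13 mice were all below the controls, with mouse C closest to them, and on day 8 mouse B was again among the controls. The log2 fold change was -0.52 on day 13 (SE 0.119, adjusted p = 0.0127), where the call held in all 8 fits without 1 mouse, and -0.31 on day 8 (adjusted p = 0.0614). Rap 4 mice had 1487, 1395, 1471 and 1498 CPM and were above every control as well as every day 13 mouse. Against day 13 the log2 fold change was 0.73 (SE 0.112, adjusted p = 0.00165). Against controls it was 0.23 (SE 0.0604, adjusted p = 0.0595), which DESeq2 called (adjusted p = 0.0102). Days 4 and 6 ranged from 1212 to 1446 CPM and from 1117 to 1178 CPM and overlapped the controls.

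The same mouse of a group was often lowest or highest for several RNAs. On day 8 mouse C had the least and mouse B the most of Meg3, Rian, Mirg, Miat and Snhg11, and mouse C had the most and mouse B the least of Malat1 and Neat1. On day 13 mouse B had the least and mouse C the most of the same 5 RNAs, while Malat1 was highest in mouse B and lowest in mouse D, and Neat1 highest in mouse A and lowest in mouse D. The labels give no seizure record for single mice, and letters name different animals in each group.

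Ordered by mean log2 level, day 13 was the lowest group for Meg3, Rian, Mirg, Miat and Snhg11 and the highest for Malat1 and Neat1, with day 8 next to it for Meg3, Rian, Malat1, Miat and Snhg11. The highest group was day 4 for Meg3, Mirg and Miat, controls for Rian and Rap 4 for Snhg11. Neighbouring groups in these orders were not told apart. In all 35 neighbouring pairs the ranges overlapped, and the lowest adjusted p over the 35 exact permutation tests was 0.385. The smallest p that 4 against 4 mice can give is 0.0286, so a single separated pair could not have passed after adjustment over 35 tests.

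Other long noncoding RNAs changed on days 8 and 13 as well. Of 20 listed brain and nuclear long noncoding RNAs, 8 were lower and none higher on day 8, and 7 were lower and 2 higher on day 13. Of all genes, 4.87% were lower and 8.41% higher on day 8, and 11.3% were lower and 15.6% higher on day 13. The 20 genes had a median log2 fold change of -0.21 on both days where the median of all genes was -0.03 and -0.04. On day 13 Ftx and Jpx, noncoding genes next to Xist, fell by 0.92 and 0.85 on the log2 scale (adjusted p = 5.08e-04 and 0.00433). Snhg1, a host of small nucleolar RNAs, rose by 0.93 (adjusted p = 0.0340), and Snhg14, the noncoding transcript of the imprinted Ube3a locus, fell by 0.68 (adjusted p = 0.0102). Under rapamycin 6 of the 20 were higher than on day 13 and 3 lower, where 13.1% of all genes were higher and 17.7% lower. Of the 20, 1 was lower under rapamycin than in controls, Sox2ot, which overlaps Sox2 (-0.53, adjusted p = 0.0165), where 2.31% of all genes were lower. Ftx had 90.0 to 100.8 CPM in controls, 41.6 to 57.6 CPM on day 13 and 90.7 to 112 CPM in Rap 4 mice.

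Genes of neuronal activity and cell type markers moved on day 13 as well. Of 10 immediate early genes, 6 were higher on day 13 and 9 lower in Rap 4 mice than on day 13, with median log2 fold changes of 1.71 and -2.07. Of all genes, 15.6% were higher on day 13 and 17.7% lower in Rap 4 mice than on day 13. Fos had 102, 51.9, 151 and 1.78 CPM in day 13 mice A to D and 3.25 to 6.79 CPM in controls. The summed level of the 10 genes was 824, 537, 1266 and 129 CPM in these mice, where Neat1 had 1938, 843, 263 and 117 CPM. Mouse C had the most immediate early transcripts and the third highest Neat1 level, and mouse D had the least of both. The sum of the 10 genes was 190 to 247 CPM in controls and 150 to 200 CPM in Rap 4 mice, so that day 13 mouse D lay below both. On day 4 this sum was 134 to 182 CPM, below every control. There 3 of the 10 genes were lower and none higher, where 1.56% of all genes were lower. Whether activity has a part in these levels was not tested. Among 8 general neuron markers 4 were higher on day 13, the tubulin Tubb3, the neurofilaments Nefl and Nefm and Stmn2, and none lower. Of 6 excitatory and 6 interneuron markers, 1 was higher, the vesicular glutamate transporter Slc17a7, and none lower. The part of cell composition in the levels of the members was not tested. Of 7 astrocyte markers Gfap was higher and Gja1 lower on day 13, of 7 microglia markers C1qa was higher, of 5 endothelial markers Cldn5 was higher, and none of the oligodendrocyte, precursor or choroid plexus markers passed. In Rap 4 mice against day 13, 5 of 8 neuron, 4 of 7 astrocyte, 5 of 7 microglia and 4 of 5 endothelial markers were lower, where 17.7% of all genes were. Among these lists 1 astrocyte marker was higher. Against controls, 6 of 7 microglia, 3 of 7 astrocyte, 2 of 5 endothelial and 3 of 6 oligodendrocyte markers were lower in Rap 4 mice, where 2.31% of all genes were. No cell type marker was higher in that comparison.

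The genes whose levels were most like those of a member were looked up over the 24 mice, among 18249 genes with a mean of at least 1 CPM. The correlations describe mice that share group and library, and r is also given without the 2 mice farthest from the median of the member. Miat was most like Mtus2, a microtubule-associated protein (Pearson's r = 0.98, Spearman's rho = 0.91, r = 0.95 without 2 mice), L3mbtl1, a chromatin reader (0.97, 0.82 and 0.94), and Faim2, an inhibitor of Fas signalling in neurons (0.97, 0.76 and 0.92). Mtus2 had 72.1 to 80.0 CPM in controls and 30.2 to 51.6 CPM on day 13, with no overlap. Malat1 was most like Eif3a, a subunit of translation initiation factor eIF3 (0.97, 0.87 and 0.94), Dnttip2, a nucleolar protein (0.96, 0.90 and 0.94), and Chgb, a granin of secretory granules (0.96, 0.87 and 0.92). Eif3a ranged from 149 to 156 CPM in controls and from 201 to 297 CPM on day 13. Meg3 was most like Kifc2, a kinesin (0.94, 0.80 and 0.88), Mgat5b, a brain glycosyltransferase (0.94, 0.82 and 0.89), and Hectd4 (0.94, 0.83 and 0.87).

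Rian and Mirg were most like a neighbour, and Snhg11 was most like a protein-coding gene. B830012L14Rik, a noncoding gene at chr12:109695586-109702587 between Rian and Mirg, came first for both, with r = 0.86 for Rian (rho = 0.74, r = 0.73 without 2 mice) and r = 0.87 for Mirg (rho = 0.81, r = 0.76 without 2 mice). Gm37899, at chr12:109668869-109677585 just beyond Rian, came second for Rian (0.84, 0.80 and 0.76), followed by Gm26956, a processed pseudogene on another chromosome whose reads may belong to a parent gene (0.84, 0.76 and 0.73). Flrt1, a membrane adhesion protein (0.85, 0.74 and 0.71), and Ankrd13d (0.85, 0.76 and 0.73) followed for Mirg. Snhg11 was most like Jade2, a chromatin protein (0.93, 0.92 and 0.93), and then Peg13 (0.93, 0.91 and 0.92) and Snhg14 (0.93, 0.92 and 0.89), both imprinted. Peg13 ranged from 167 to 192 CPM in controls, from 98.0 to 144 CPM on day 13 and from 196 to 212 CPM in Rap 4 mice, which were above all controls, as they were for Snhg11.

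Neat1 was most like Lif, a cytokine of the interleukin 6 family, Ptbp1, a splicing repressor, and Sbno2, a transcriptional coregulator. The r was 0.96, 0.95 and 0.95 with rho of 0.72, 0.70 and 0.54, and without the 2 mice farthest from the median Neat1 level it was 0.77, 0.63 and 0.68, lower in each case. Lif had 92.1, 31.3, 2.699 and 0.355 CPM in day 13 mice A to D, in the same order as Neat1, and 0.472 to 0.551 CPM in controls. Lif was picked for its likeness to Neat1 over these same mice, so the shared order is no further evidence. It was also raised in mouse C of day 8, with 2.78 CPM. Sbno2 had 147, 116, 43.4 and 30.5 CPM in the day 13 mice and 29.8 to 32.7 CPM in controls.

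**Figure D5:**
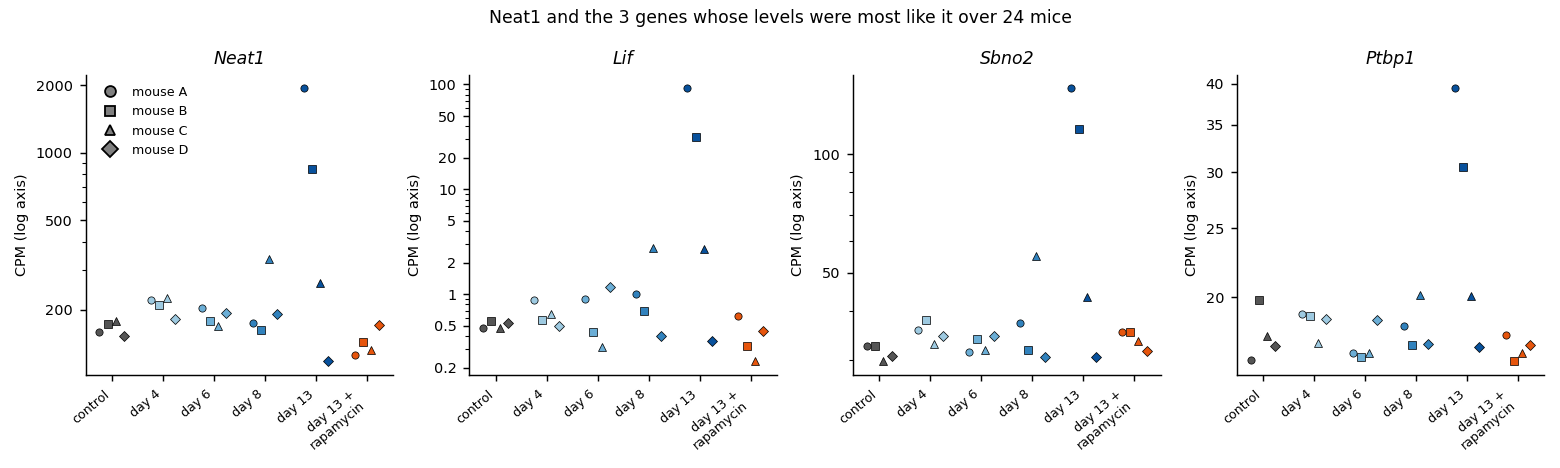
CPM (log axes) of Neat1 and of the 3 genes most like it, Lif, Sbno2 and Ptbp1, in each of 24 mice (points, shape by mouse letter) in 6 groups (x axis). Day 13 mice A and B stand above all others in each plot, and day 13 mouse D lies within or below the range of the controls.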

How the data were processed

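Total RNA of 24 hippocampi was sequenced after ribosomal RNA depletion with a stranded paired-end kit. Per the study's methods and the submitters' processing notes, reads were trimmed with cutadapt 1.16.5, aligned to mm10 (GRCm38) with STAR 2.7.2b and counted per gene with featureCounts 1.6.4 and GENCODE M24, and the authors deposited raw counts per gene for each mouse. The strand and multimapping settings of the counting are not given in the sources used here, and between 57.7% and 59.9% of the counts from 4 to 199 were even, so a count may stand for a read end rather than a pair. Groups came from the labels, and letters A to D name mice within a group.

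From the counts, edgeR 4.0.16 (R 4.3.3) fitted each comparison on its own 8 mice, after filterByExpr and TMM scaling, with the quasi-likelihood test and Benjamini-Hochberg adjustment over all genes tested. An adjusted p under 0.05 passed the test. The edgeR p-values weigh a difference between groups against the spread between these mice, 4 per group, as moderated over all genes. CPM are counts scaled to library size with TMM factors over all 24 mice. Library totals of 28208561 to 126435936 counts set the counting error. DESeq2 1.42.0, other scalings, filters, covariates, a replicate block and fits without 1 mouse were alternatives, and thinning all libraries to the smallest was added after seeing the data. Ratios and neighbouring groups were compared with two-sided exact permutation tests (SciPy 1.17.1). Gene positions and lengths came from GENCODE M21, which held 55144 of the 55385 gene identifiers, and sequences from RefSeq tables, which held promoters of 6 of the 7 members. The fit was tested on simulated data.

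The members and gene lists were chosen with earlier results of these data known. Named genes were all members, all measured genes of the Dlk1-Dio3 list, from each other list at most 4 genes past the test with the largest absolute log2 fold change, genes overlapping a member, and the 3 genes (mean of at least 1 CPM) most correlated with each member over 24 mice. The results of 1 gene of a list, which the rule would also name, are left out.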

Additional observations from a re-analysis of the deposited data

Results flagged for a closer look

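Of the 42 groups of 4 mice examined for the 7 members, 3 held a mouse that stood apart by Dixon's criterion, and chance flags about 1 in 20 groups. Mouse C of day 6 had the lowest Meg3 level of its group, 2327 CPM, while the other 3 mice lay between 2528 and 2544 CPM. Control mouse B had the lowest Rian level of the controls, 818 CPM, while the others lay between 884 and 896 CPM. Mouse C of day 8 had the highest Neat1 level of its group, 337 CPM, while the others lay between 163 and 192 CPM, and without it the Neat1 log2 fold change on day 8 was 0.08 in place of 0.38.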

How the results depend on the processing

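No member past the test changed direction in any alternative fit, while Rian on day 13, which did not pass, went from -0.26 to 0.04 with the GC offset. Counts of members past the test moved as follows. On day 4 the count of 1 became 0 in the fit of all 24 mice and with the Xist covariate. On day 6 the count of 0 became 1 with DESeq2, with total counts only and with the replicate block. On day 8 the count of 2 became 5 with DESeq2 and with total counts only, 4 without the filter and 1 under the replicate block. For rapamycin against controls it went from 0 to 1 with DESeq2, without the filter, and with the replicate block. Without 1 mouse the counts ranged from 0 to 1 on day 4, 0 to 1 on day 6, 0 to 6 on day 8, 3 to 7 on day 13, 0 to 1 for rapamycin against controls, 4 to 5 for rapamycin against day 13 and 5 to 7 in the F test. Malat1, Miat and Snhg11 on day 13 and, with Meg3, under rapamycin against day 13 passed in all 8 fits without 1 mouse and all 9 others. With the replicate block the Neat1 log2 fold change was 1.49 on day 13 (adjusted p = 0.132) and -1.74 for rapamycin against day 13 (adjusted p = 0.0969), and Rian on day 8 had an adjusted p of 0.0733. Same-lettered mice did not deviate together over the genes (correlations from -0.116 to 0.0768), and the labels name no pairing of animals by letter. In controls and on day 8 alike, mice A and B shared a number series and mice C and D shared a different series. The cause of these changes was not tested. Depth limits the Dio3 and microRNA gene values, which rest on few reads.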

Other observations

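Long noncoding gene types as a whole, as the annotation defines them, were looked up after the members' values were seen. On day 13, 153 of 3858 tested were higher and 541 lower than in controls, and 70.7% had a negative log2 fold change (median -0.27), where 53.4% of all genes did (median -0.04). On day 8, 53 of 3915 were higher and 178 lower (median -0.14). Of all genes, 15.6% were higher and 11.3% lower on day 13, and 8.41% were higher and 4.87% lower on day 8. On day 8 these gene types were therefore not called lower more often than all genes, and were called higher less often. Under rapamycin, 665 of 3676 were higher than on day 13 and 173 lower (median 0.31). Against controls, 16 of 3891 were higher under rapamycin and 18 lower (median 0.05). The shares of all genes were 13.1% higher and 17.7% lower against day 13, and 1.26% higher and 2.31% lower against controls. The counts of long noncoding genes leave out the members. With the members included, except Snhg11, these gene types took 4.58% to 5.05% of all counts in controls and 5.10% to 5.28% on day 13. Malat1 alone took 2.04% to 2.08% in controls and 2.34% to 3.02% on day 13, so this share says little about the other genes.

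Ftx was below all controls in every Tsc1-Cre+ mouse without rapamycin. These mice had 77.6 to 87.4 CPM on day 4, 65.6 to 79.8 CPM on day 6 and 63.8 to 68.1 CPM on day 8, all below the 90.0 CPM of the lowest control. Snhg1, a host of small nucleolar RNAs, was instead highest in day 13 mice A and B, with 19.1 and 21.7 CPM against 9.18 and 8.68 CPM in mice C and D. The same mice A and B had the most Neat1. They shared a number series in the file names, which neither C nor D had, so mouse and series cannot be told apart.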
